A study of Mus musculus domesticus with 6 samples.

Results

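Ribosome biogenesis and rRNA processing factors are the proteins that transcribe ribosomal DNA, cut and modify the precursor rRNA and assemble it with ribosomal proteins into 40S and 60S subunits. The 50 genes described here were taken by symbol from a list of such factors, and all 50 were found among 55359 gene entries in each library. Total RNA was measured in BFU-E, early progenitors of the red cell lineage named for the bursts of erythroid colonies they form, sorted as GFP-positive, lineage-negative, Kit-positive cells with low CD24 and CD71 from the livers of E14.5 mouse embryos. The Cre-positive group (Exosc3 fl/fl Cre+, 3 libraries) carried 2 floxed Exosc3 alleles and Vav1-Cre, a transgene active in blood cells from the Vav1 promoter, whose cells still include any that escaped recombination. The Cre-negative group (Exosc3 fl/fl Cre-, 3 libraries) carried the same floxed alleles without Cre. The 6 samples came from 3 litters, with 2 from each.

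Ribosomes are built in the nucleolus. RNA polymerase I copies the rRNA genes into a long precursor, small nucleolar RNPs (snoRNPs) guide its chemical modification, the small subunit (SSU) processome folds and cuts the 40S part, and a separate set of factors shapes the 60S part. The RNA exosome, of which EXOSC3 is a cap subunit, trims the 3' end of the 5.8S rRNA precursor and degrades spacer fragments released by the cuts, so its substrates are made by the genes described here. Rapidly dividing erythroid progenitors are known for a high demand for ribosomes.

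The libraries held 89629949 to 124931215 expected counts, the reads that RSEM assigns to genes. Exosc3 (ENSMUSG00000028322) averaged 26.4 ± 4.07 CPM in Cre-positive libraries and 48.1 ± 3.80 CPM in Cre-negative libraries (SD, n = 3 each; CPM is the count scaled to library size), with no overlap. The log2 fold change, -0.87 ± 0.22 (SE), missed the threshold over all genes with edgeR (adjusted p = 0.259) and passed it with DESeq2 (adjusted p = 0.00325). Among 12 BFU-E and erythroid markers, Kit was at 79.9 to 130 TPM (a level scaled for transcript length and library size) in Cre-positive and 107 to 130 TPM in Cre-negative libraries, and Slc4a1, a late red cell gene, was at most 0.23 TPM. Of the 12, Car2 passed, with a log2 fold change of 1.09. In CPM, Kit was lower in every Cre-positive library, at 334, 348 and 355 against 375, 385 and 426. Cd24a, the gene of the sort marker CD24, was higher in every one, at 187, 150 and 142 against 134, 124 and 72.7 CPM. Neither passed (edgeR adjusted p = 0.614 and 0.558). Beside Car2, the other tested markers of this list overlapped in CPM. Hepatocyte markers (3 of 5 at 0 in every library) and macrophage markers (4 of 5 at 0 in every library) were absent or nearly so.

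All 50 members were detected in every library and all passed the filter on low counts. The lowest count of any member was 1666 (Nob1 in Cre-negative replicate 2) and the highest 1429253 (Ncl in Cre-positive replicate 1). Together they took 1.61%, 1.70% and 1.596% of all TPM in the Cre-positive libraries and 1.72%, 1.72% and 1.53% in the Cre-negative libraries. The means were 1.64% ± 0.0551 and 1.66% ± 0.113 (SD, n = 3 each), a ratio of 0.987. Ncl and Npm1 alone made up 53.7% ± 0.938 of that sum in Cre-positive and 54.2% ± 0.702 in Cre-negative libraries. In bulk RNA, fewer cells with a transcript and less of it per cell cannot be told apart.

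**Figure D1:**
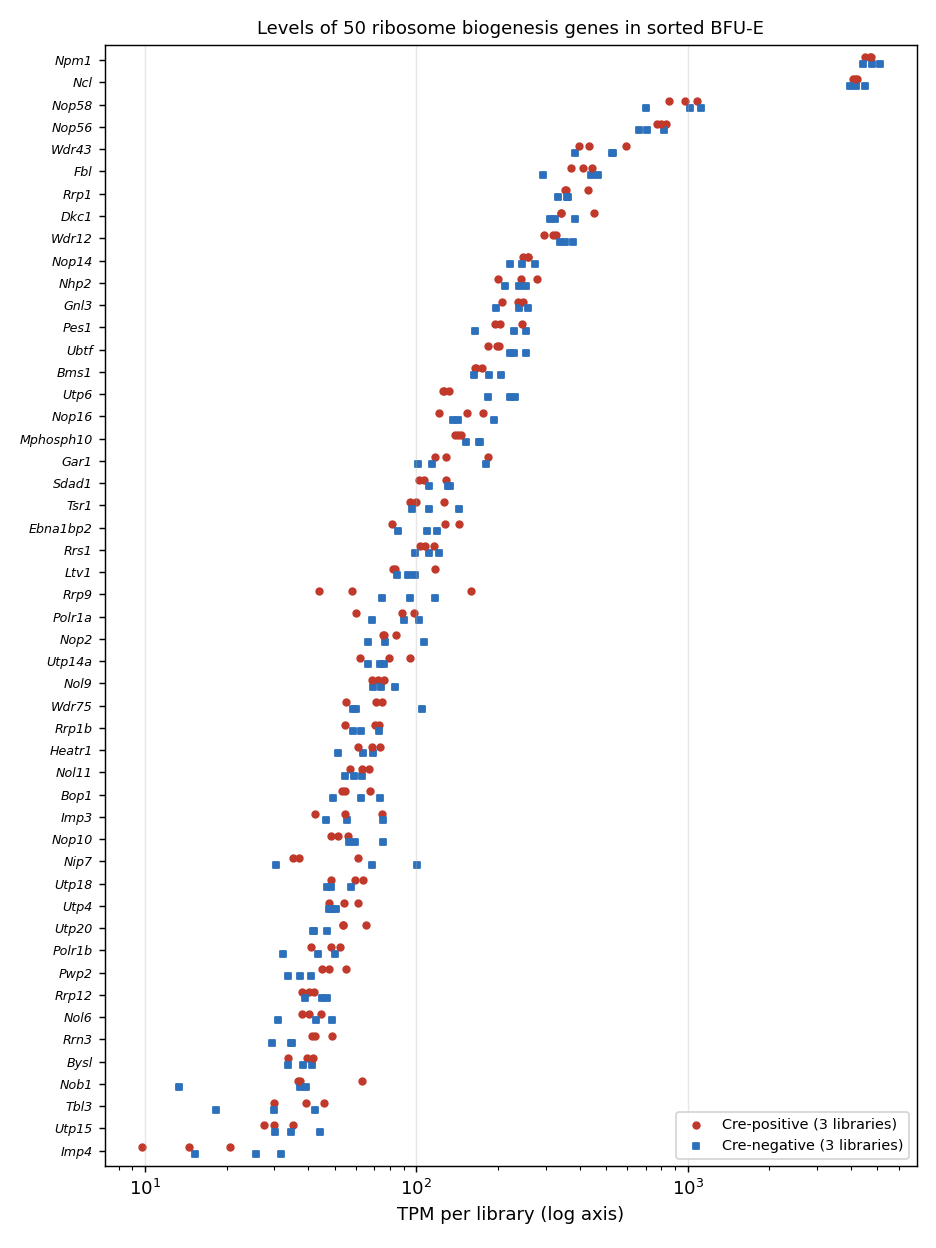
Level of each of the 50 members in TPM (log axis) in the 3 Cre-positive libraries (circles) and the 3 Cre-negative libraries (squares), ordered by mean level. The members run from Npm1 and Ncl at no less than 3973 TPM down to Imp4 at 9.77 to 31.7 TPM, and the symbols of both groups overlap for most genes.

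Npm1, which encodes nucleophosmin, an abundant nucleolar chaperone, averaged 4639 ± 118 TPM in Cre-positive and 4763 ± 334 TPM in Cre-negative libraries, and ranked 25 among all genes. Ncl, which encodes nucleolin, an RNA-binding protein of the nucleolus, averaged 4140 ± 81.2 and 4216 ± 274 TPM in the same order of groups and ranked 31 (SD, n = 3 each). Their log2 fold changes from counts were -0.08 ± 0.09 (SE) for Npm1 and -0.01 ± 0.06 for Ncl. For Ncl the 95% interval of the log2 fold change ran from -0.15 to 0.12, the narrowest of the 50. Of the members, 19 ranked among the 1000 genes with the highest mean TPM.

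Of the 50 members, 0 were higher and 0 lower in Cre-positive BFU-E at an adjusted p under 0.05 (edgeR's quasi-likelihood test with Benjamini-Hochberg adjustment over 13117 tested genes, of which 0.122% passed). The adjusted p of the members ran from 0.306 to 0.999. At an unadjusted p under 0.05, 5 members were higher, against 4.05% of all tested genes, and 1 was lower, against 4.19%. Together these are 12% of the members, against 8.23% of all tested genes. All members averaged at least 3434 counts, and the latter share was larger among genes with high counts. When only the 8338 genes averaging 1000 counts or more were tested, 457 were higher and 457 lower at that threshold. DESeq2 called 4 members higher and 0 lower, 8% of the 50. Over all tested genes it called 1.79% higher and 1.66% lower, 3.45% in all. These include many genes with lower counts than any member, and no DESeq2 share was computed for genes at the members' count level. In CPM, every Cre-positive library lay above every Cre-negative library for 6 members (7.53% of all tested genes) and below for 2 (7.66%). These 8 are 16% of the members, against 15.2% of all tested genes, a share near the background.

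The ratio of mean CPM, Cre-positive over Cre-negative, ran from 0.772 for Nop16 to 1.47 for Nob1, and for 34 members it lay within 10% of 1. For 35 members the difference between group means on the log2 scale was smaller than the pooled SD between libraries of a group. The median log2 fold change was 0.03 over the members and -0.01 over all tested genes. The interquartile range of the members ran from -0.04 to 0.09, against -0.32 to 0.28 for all tested genes and -0.15 to 0.15 for the 5175 tested genes with a mean count at least that of the lowest member. Much of the contrast with all genes thus went with count level.

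How large a change the libraries would still allow was read from the 95% intervals. For 49 of 50 members the whole interval lay between -1 and 1 on the log2 scale, that is, within a 2-fold change in either direction. The exception was Nob1, the endonuclease that makes the last cut at the 3' end of 18S rRNA, whose interval ran from -0.19 to 1.298. The same was true of 42% of all tested genes, and of 90.7% of the 5175 tested genes with a mean count at least as high as the lowest member (3434 counts). For 36 members the interval lay within 0.5 log2 units of 0, against 15.6% of all tested genes. A narrow interval goes with a high count, as the plot of precision by level shows.

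**Figure D2:**
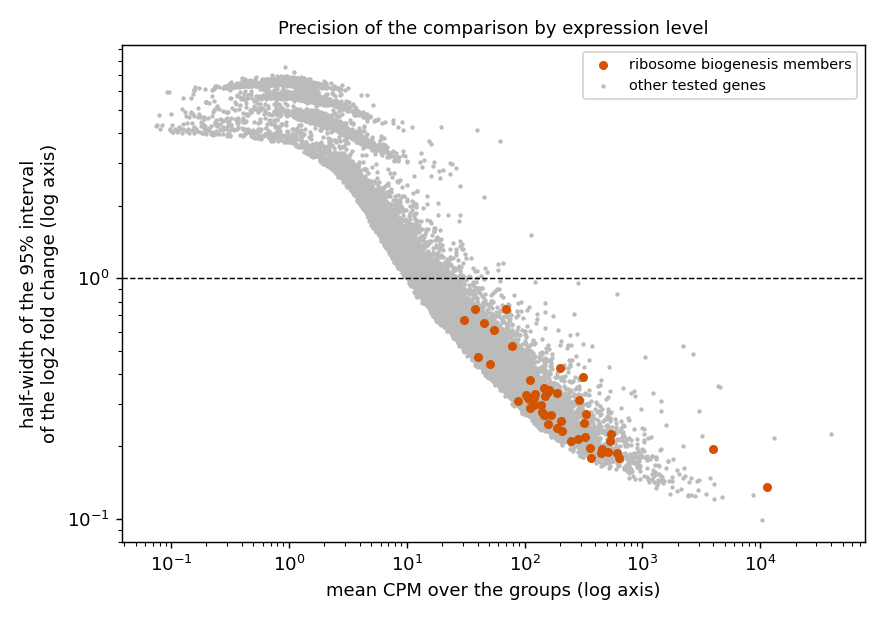
Half-width of the 95% interval of each gene's log2 fold change (log axis) against its mean CPM over both groups (log axis), for the 50 members (large points) and the other tested genes (small points). The dashed line marks 1 log2 unit, and all members lie below it, with a median half-width of 0.29 against 0.86 for all tested genes.

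33 members had a positive log2 fold change (66.0%, against 49.2% of all tested genes), and this count varied with the libraries and the scaling. Cre-negative replicate 3 was the lowest of its group for 34 of the 50 members, with a median member at 92.4% of the Cre-negative mean. The other Cre-negative libraries stood at 103.5% and 102.4%, and the Cre-positive replicates 1, 2 and 3 at 101.4%, 104.8% and 98.1%. Without Cre-negative replicate 3 the positive members numbered 21 and the median of all 50 was -0.02. They numbered 27 without Cre-positive replicate 2, 28 without Cre-positive replicate 1, 27 with libraries scaled by their totals alone and 26 on log2(TPM + 1) values. Cre-negative replicate 3 also had the highest summed level of 11 neutrophil and monocyte markers, 977.8 TPM, against 567.1 and 340.5 TPM in the other Cre-negative libraries, and 169.3, 211.4 and 331.0 TPM in the Cre-positive libraries. Most of each sum was Mpo, at 755.8, 456.5 and 251.7 TPM in that order of Cre-negative libraries and 121, 122 and 277 TPM in the Cre-positive libraries. The 10 lymphoid markers summed to 73.0 TPM in Cre-negative replicate 3, against 46.4 and 25.3 TPM in the other Cre-negative libraries. In the Cre-positive libraries they summed to 1.24 to 4.61 TPM, and 2 of the 10 were at 0 in all 6 libraries. Across the groups, 8 of 9 tested neutrophil and monocyte markers and 6 of 6 tested lymphoid markers had a negative log2 fold change. So had 6 of 7 stem and multipotent progenitor markers, whose sums overlapped at 128 to 140.2 TPM in Cre-positive and 129.8 to 213 TPM in Cre-negative libraries. Of these 7, Flt3 and Hmga2 were lower in every Cre-positive library, with ratios of mean CPM of 0.238 and 0.381 (edgeR adjusted p = 0.234 and 0.229), while Mllt3 was higher in every one. The 12 erythroid markers summed to 1055 to 1282 TPM in Cre-positive and 882 to 959 TPM in Cre-negative libraries. Without Car2 the other 11 summed to 734 to 868 TPM and 707 to 775 TPM in that order of groups, with overlap, and Kit, Gata2 and Tal1 had negative log2 fold changes. Megakaryocyte, mast cell and endothelial sums overlapped between groups. The part of these markers in the members' levels was not tested.

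**Figure D3:**
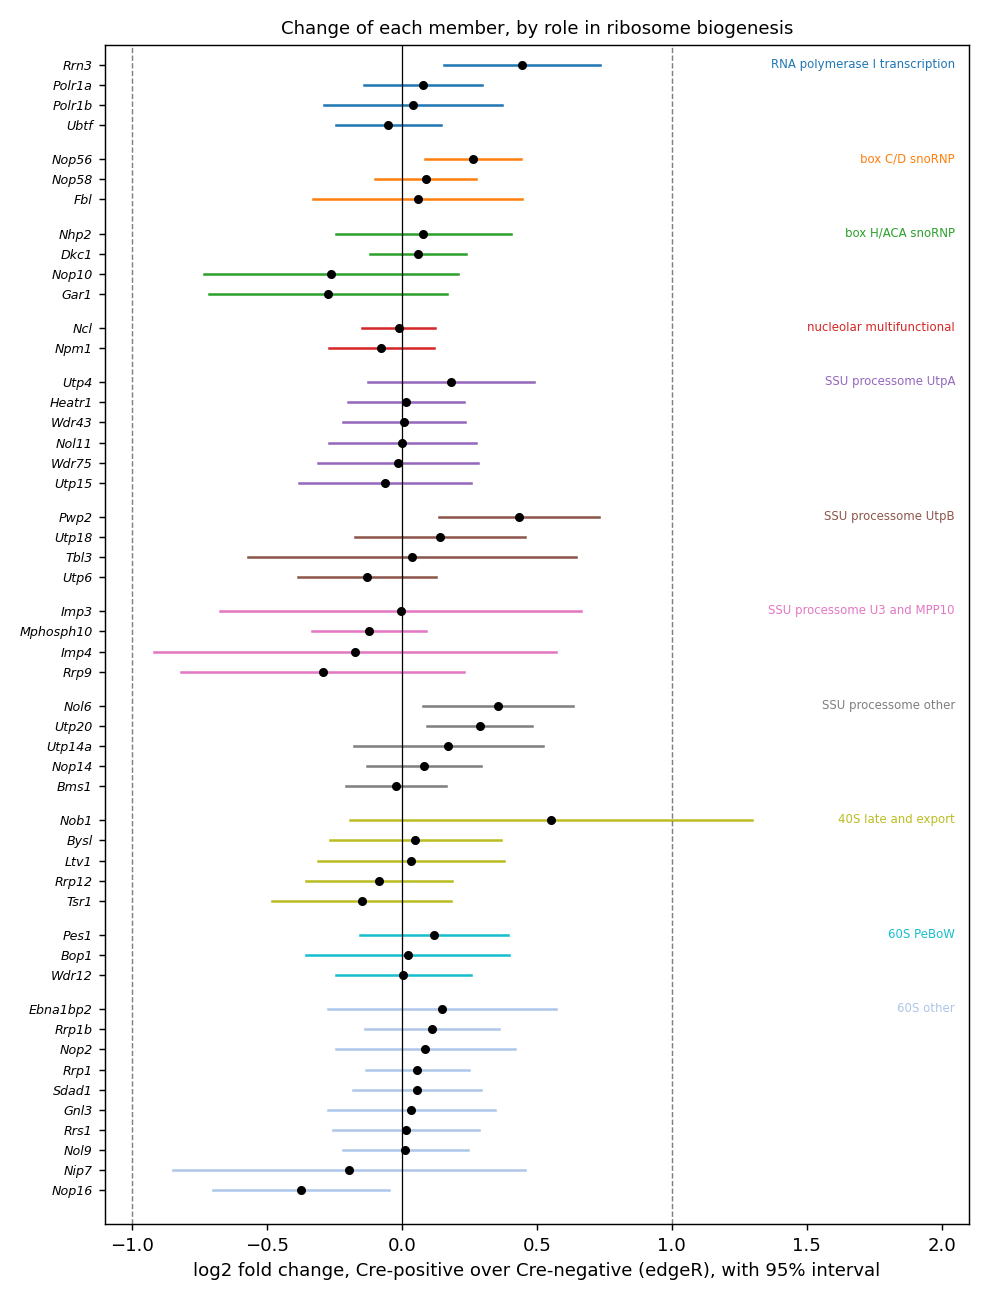
Log2 fold change of each member, Cre-positive over Cre-negative (edgeR, points), with its 95% interval (bars), grouped by role. Dashed lines mark 1 log2 unit in either direction. The intervals of Rrn3, Nop56, Pwp2, Nol6 and Utp20 lie above 0, that of Nop16 lies below 0, and the interval of Nob1 passes the upper dashed line.

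RNA polymerase I transcription was represented by 4 members. Rrn3 (ENSMUSG00000022682), which encodes TIF-IA, the factor that makes the polymerase competent to initiate, was at 126, 138 and 121 CPM in Cre-positive replicates 1, 2 and 3, and at 101, 85.6 and 96.3 CPM in the Cre-negative replicates. All 3 Cre-positive libraries were higher than all 3 Cre-negative libraries. For Rrn3 the log2 fold change was 0.44 ± 0.13 (SE; edgeR adjusted p = 0.306). DESeq2 gave it an adjusted p of 0.0159, and the 16 alternatives together spanned 0.0159 to 0.666. The same order held in TPM, at 44.2 ± 4.11 in Cre-positive and 32.9 ± 3.04 in Cre-negative libraries (SD, n = 3 each). Rrn3 had the smallest p of the 50 members.

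The polymerase's largest subunit gene, Polr1a, averaged 332 ± 35.1 CPM in Cre-positive and 315 ± 2.78 CPM in Cre-negative libraries, and its groups overlapped. Polr1b, the second-largest subunit, averaged 126 ± 9.14 and 122 ± 20.5 CPM in that order of groups. Ubtf, which encodes the upstream binding factor that holds ribosomal DNA open, was at 445 ± 20.8 CPM in Cre-positive and 461 ± 34.4 CPM in Cre-negative libraries. The intervals of these 3 log2 fold changes lay within -0.29 and 0.37. In TPM, Ubtf was at 201, 198 and 184 in Cre-positive libraries and at 254, 229 and 221 in Cre-negative libraries, with no overlap, while its CPM values did overlap. TPM divides by the effective transcript length that RSEM assigns. For Ubtf this was 2468, 2573 and 2543 bases in Cre-positive and 2206, 2116 and 2371 bases in Cre-negative libraries. With these lengths as offsets its log2 fold change was -0.24 (edgeR adjusted p = 0.757). The ratio of Ubtf to Rrn3 TPM was 4.42 ± 0.355 in Cre-positive and 7.15 ± 0.687 in Cre-negative libraries (SD, n = 3 each). In TPM, Ubtf was lower and Rrn3 higher in every Cre-positive library, so this ratio had to separate and is no further observation.

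The box C/D snoRNP proteins place 2'-O-methyl groups on rRNA and take part in its cleavage with U3. Their 3 members all had a positive log2 fold change in the main fit. That of Fbl was negative under 2 of the 16 alternatives, down to -0.14 with a single library left out. Nop56 (ENSMUSG00000027405), a core scaffold protein, was at 690, 673 and 705 CPM in Cre-positive and at 574, 616 and 532 CPM in Cre-negative libraries, without overlap. For Nop56 the log2 fold change was 0.26 ± 0.08 (SE; edgeR adjusted p = 0.324, DESeq2 adjusted p = 0.0140, alternatives from 0.0140 to 0.896). In TPM its groups overlapped, at 774, 834 and 797 in Cre-positive and 709, 820 and 660 in Cre-negative libraries, and the log2 fold change was 0.17 with effective length offsets and 0.14 on log2(TPM + 1) values. The expected counts of Nop56, Npm1 and Fbl were not whole in some libraries, so some of their reads were shared with other entries and their values are less certain.

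Nop58, the partner scaffold, averaged 455 ± 14.0 CPM in Cre-positive and 428 ± 27.5 CPM in Cre-negative libraries, with overlap and a log2 fold change of 0.09 (standard error 0.08). Fbl, which encodes the methyltransferase fibrillarin, averaged 321 ± 29.6 and 308 ± 77.9 CPM in that order of groups, and its lowest library was Cre-negative replicate 3 at 219 CPM. Per length, Nop58 stood above Nop56 and Nop56 above Fbl in 6 of 6 libraries. The ratio of Nop58 to Fbl TPM was 2.38 ± 0.0680 in Cre-positive and 2.37 ± 0.0465 in Cre-negative libraries (SD, n = 3 each), a difference of less than 1 SD.

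The box H/ACA snoRNP proteins, which convert uridines to pseudouridine, were split by sign. Dkc1, the pseudouridine synthase dyskerin, averaged 371 ± 9.43 CPM in Cre-positive and 356 ± 9.99 CPM in Cre-negative libraries, and Nhp2 averaged 154 ± 26.8 and 145 ± 11.9 CPM. Gar1 was at 48.4, 47.2 and 42.4 CPM in Cre-positive and 52.9, 66.9 and 47.0 CPM in Cre-negative libraries, and Nop10 at 34.7, 35.7 and 39.2 against 41.3, 52.5 and 38.0 CPM. Both pairs of ranges overlapped in CPM, with log2 fold changes of -0.27 (standard error 0.20) for Gar1 and -0.26 (0.21) for Nop10. These 4 proteins enter each particle in equal copies, and their transcripts stood in the order Dkc1, Nhp2, Gar1, Nop10 in 6 of 6 libraries. The ratio of Dkc1 to Nop10 TPM was 7.32 ± 1.72 in Cre-positive and 5.41 ± 1.07 in Cre-negative libraries. In GENCODE M21 an exon of Dkc1 overlaps one of Mpp1 on the opposite strand, and 20 of the 50 members have such an overlap with some gene. Since no source used here says whether counting used strand, reads from these partners cannot be told apart.

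The UtpA subcomplex, which binds the nascent precursor first, had 6 members, and the UtpB subcomplex, which joins it at the 5' end, had 4. Utp4 was at 85.2, 105 and 92.3 CPM in Cre-positive and 83.5, 81.6 and 83.6 CPM in Cre-negative libraries, without overlap but with an interval of -0.13 to 0.49 for its log2 fold change of 0.18. The other 5 UtpA members, Heatr1, Wdr43, Nol11, Wdr75 and Utp15, had log2 fold changes between -0.06 and 0.01, and the sign of 3 of these changed when libraries were scaled by their totals. Heatr1 was at 287 ± 23.2 CPM in Cre-positive and 284 ± 12.5 CPM in Cre-negative libraries. Utp15 had the second-lowest TPM of the 50 members, at 30.8 ± 3.93 and 36.3 ± 7.04 in the same order of groups.

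In UtpB, Pwp2 (ENSMUSG00000032834), a WD-repeat scaffold protein also called UTP1 in yeast, was at 154, 175 and 143 CPM in Cre-positive and at 129, 118 and 103 CPM in Cre-negative libraries. Its groups did not overlap in CPM or in TPM. For Pwp2 the log2 fold change was 0.43 ± 0.13 (SE; edgeR adjusted p = 0.332, DESeq2 adjusted p = 0.0261, alternatives from 0.0261 to 0.694). Utp18, its neighbour in the complex, was at 113 ± 10.9 CPM in Cre-positive and 103 ± 12.1 CPM in Cre-negative libraries, with overlap. Tbl3, the UTP13 homologue and the third-lowest member in TPM, ranged from 46.4 to 69.6 CPM in Cre-positive and from 35.8 to 72.4 CPM in Cre-negative libraries.

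The U3 and MPP10 group joins the U3 snoRNA to the precursor, and its 4 members all had negative log2 fold changes, with a median of -0.15, under each scaling of the libraries tried. Imp3 and Imp4 turned positive when certain single libraries were left out. Rrp9, a U3-specific protein, was at 63.8, 96.0 and 49.3 CPM in Cre-positive and 80.3, 95.5 and 80.5 CPM in Cre-negative libraries, so the Cre-positive libraries spanned the Cre-negative range. Mphosph10 was at 244, 219 and 252 CPM in Cre-positive and 260, 259 and 260 CPM in Cre-negative libraries, without overlap. This amounted to -0.12 ± 0.09 (SE) on the log2 scale, a ratio of mean CPM of 0.919. Imp3 and Imp4 help U3 pair with the pre-rRNA, and Imp3 averaged 30.8 ± 9.26 CPM in Cre-positive and 30.9 ± 7.05 CPM in Cre-negative libraries. Imp4, the lowest member in TPM, was at 85.7, 39.4 and 69.8 CPM in Cre-positive and 58.6, 108 and 53.3 CPM in Cre-negative libraries, with overlap and a log2 fold change of -0.17 ± 0.33 (SE).

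Among the other 5 SSU processome members, Utp20 and Nol6 had separated groups. Utp20 (ENSMUSG00000004356), a very large scaffold protein, was at 386, 410 and 391 CPM in Cre-positive and at 350, 315 and 308 CPM in Cre-negative libraries. For Utp20 the log2 fold change was 0.29 ± 0.09 (SE; edgeR adjusted p = 0.330, DESeq2 adjusted p = 0.0157, alternatives from 0.0157 to 0.682). Nol6 (ENSMUSG00000028430), the UTP22 homologue, was at 157, 170 and 144 CPM in Cre-positive and at 132, 127 and 109 CPM in Cre-negative libraries. The log2 fold change of Nol6 was 0.36 ± 0.12 (SE; edgeR adjusted p = 0.442; DESeq2 adjusted p = 0.0751), but 0.03 with effective length offsets. Utp14a, Nop14 and the GTPase Bms1 had overlapping groups, with log2 fold changes of 0.17, 0.08 and -0.02.

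**Figure D4:**
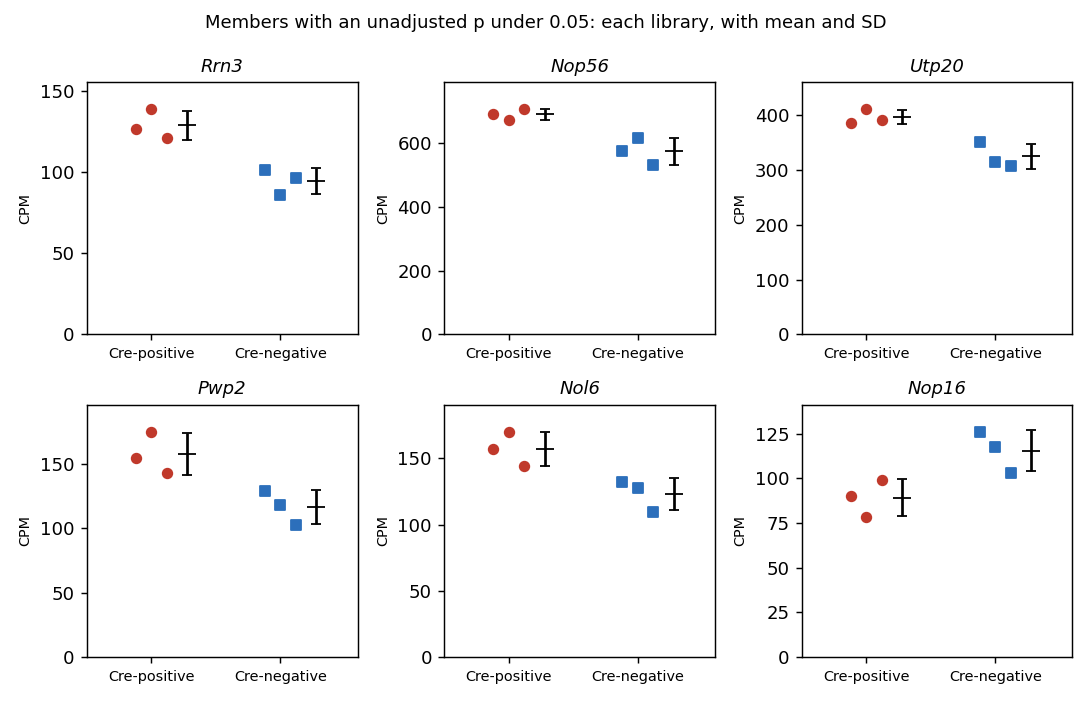
CPM in each library (points) with the group mean and SD (bars) for the 6 members with an unadjusted p under 0.05, Cre-positive left of Cre-negative, on axes that start at 0. Rrn3, Nop56, Utp20, Pwp2 and Nol6 are higher in every Cre-positive library and Nop16 is lower in every one, with none passing adjustment over all genes by edgeR.

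Late 40S maturation and export was represented by Rrp12, Bysl, Ltv1, Tsr1 and Nob1. Nob1 was at 46.5, 41.7 and 47.2 CPM in Cre-positive and at 33.5, 15.9 and 42.9 CPM in Cre-negative libraries, with overlap. Its ratio of means, the highest of the 50, rested on the low Cre-negative replicate 2: the log2 fold change was 0.55 ± 0.33 (SE), 0.24 without that library and 0.87 without Cre-negative replicate 3. Tsr1, a GTPase-like export and maturation factor, averaged 178 ± 22.2 CPM in Cre-positive and 197 ± 33.1 CPM in Cre-negative libraries. The export factor Rrp12, Bysl and the assembly factor Ltv1 had log2 fold changes of -0.09, 0.05 and 0.03, all with overlapping groups. Over the 24 members of the 40S branch, SSU processome included, 14 had a positive log2 fold change and the median was 0.01.

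On the 60S branch, 13 members had a median log2 fold change of 0.04, and 11 of them were positive, of which Wdr12, Rrs1 and Nol9 turned negative when libraries were scaled by their totals alone. The PeBoW complex, needed to mature the rRNAs of the large subunit, had 3 members. Pes1 averaged 345 ± 35.4 CPM in Cre-positive and 317 ± 43.0 CPM in Cre-negative libraries, Bop1 113 ± 14.9 and 111 ± 20.5 CPM, and Wdr12 317 ± 23.1 and 316 ± 39.3 CPM in that order of groups. All 3 overlapped in CPM, with intervals of the log2 fold change between -0.36 and 0.40. Per length, the order Wdr12, Pes1, Bop1 held in 6 of 6 libraries, with a ratio of Wdr12 to Bop1 TPM of 5.45 ± 0.649 in Cre-positive and 5.90 ± 0.866 in Cre-negative libraries.

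Of the other 10 members on the 60S branch, Nop16 (ENSMUSG00000025869), a nucleolar assembly factor, stood apart. It was at 90.4, 78.2 and 99.2 CPM in Cre-positive and at 126, 118 and 103 CPM in Cre-negative libraries, so that every Cre-positive library was lower. On the log2 scale Nop16 differed by -0.37 ± 0.15 (SE; edgeR adjusted p = 0.526; DESeq2 adjusted p = 0.138), but -0.03 with effective length offsets, and in TPM its groups overlapped. Rrp1b, a nucleolar protein that joins the 60S precursors, averaged 163 ± 11.4 CPM in Cre-positive and 151 ± 9.40 CPM in Cre-negative libraries. The GTP-binding nucleostemin gene Gnl3, the methyltransferase gene Nop2 and the 5S RNP loading factor gene Rrs1 had log2 fold changes of 0.04, 0.09 and 0.01. Those of Ebna1bp2, Rrp1, Sdad1 and Nol9 lay between 0.01 and 0.15, and that of Nip7 was -0.20 ± 0.29 (SE).

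For some members the direction of the difference depended on the transcript length that RSEM assigned. RSEM weights a gene's effective length by the isoforms it assigns reads to, and the mean effective length differed by over 1.2 times between groups for 7 members, against 24.5% of tested genes. Utp6, a UtpB protein, had effective lengths of 1813, 1438 and 1834 bases in Cre-positive and 1356, 1068 and 1051 bases in Cre-negative libraries, without overlap. By counts it stood at 196 ± 21.9 CPM in Cre-positive and 214 ± 11.6 CPM in Cre-negative libraries, with a log2 fold change of -0.13 (standard error 0.11). Its TPM, in contrast, was 127, 132 and 125.2 in Cre-positive and 183, 230 and 222 in Cre-negative libraries, and with length offsets the log2 fold change was -0.70, which did not pass.

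Nop16 had shorter effective lengths in each Cre-positive library (639, 715 and 628 bases) than in the Cre-negative libraries (730, 920 and 881 bases), and Nol6 had longer ones (4243, 4253 and 4239 against 3028, 3323 and 4101 bases). Of the 8 members with separated groups in CPM, these and Nop56 and Utp4 overlapped in TPM, while Rrn3, Pwp2, Utp20 and Mphosph10 were separated in both. Wdr12, Nop10, Ubtf and Utp6 overlapped in CPM but were lower in every Cre-positive library in TPM. Wdr12 was at 319, 296 and 328 TPM in Cre-positive and 354.5, 380 and 338 TPM in Cre-negative libraries. Nop10 was at 48.7, 51.35 and 56.2 against 59.5, 75.5 and 56.7 TPM. Gar1 and Tbl3 were assigned shorter, and Imp4 and Nip7 longer, effective lengths in Cre-positive libraries on average. Length offsets moved Gar1 from -0.27 to 0.15 and Tbl3 from 0.04 to 0.38 on the log2 scale, and Imp4 to -0.65 and Nip7 to -0.56. Over the 50 members the sign differed for 8, the interval count within 1 log2 unit was 44, and the median was 0.02. Rrn3, Pwp2 and Utp20 had log2 fold changes of 0.46, 0.43 and 0.44 with offsets. The cause of the length differences was not tested.

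**Figure D5:**
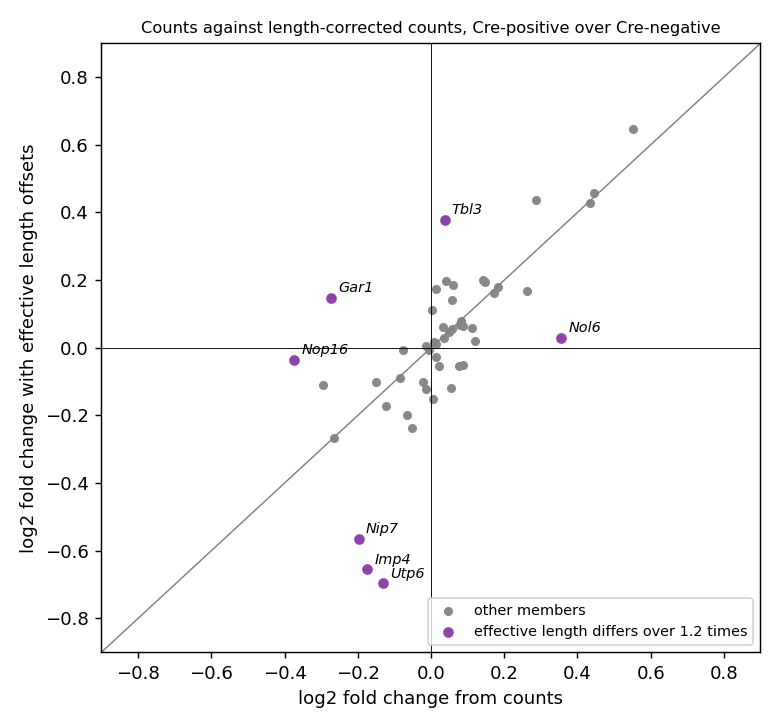
Log2 fold change of each member with effective length offsets against that from counts alone, both Cre-positive over Cre-negative, with the line of equality. The 7 labelled members, whose mean effective length differed by over 1.2 times between groups, lie away from the line, and the other 43 lie near it.

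Genes of the same pathway outside the 50 were read from the same fit. Of 83 further factors (11 for RNA polymerase I, 31 for the 40S branch and 41 for the 60S branch), none passed over all genes by edgeR. At an unadjusted p under 0.05, 5 were higher and 1 was lower, against 4.05% and 4.19% of all tested genes. A positive log2 fold change was found for 52 of the 83, against 49.2% of all tested genes, and the median was 0.07. Their summed level was 8156, 8231 and 8389 TPM in Cre-positive and 8318, 7827 and 7202 TPM in Cre-negative libraries, so Cre-negative replicate 3 was the lowest library here too. Rbm28, a 60S assembly protein, was at 186, 177 and 180 CPM in Cre-positive and 151, 141 and 128 CPM in Cre-negative libraries, with no overlap and a log2 fold change of 0.37 (standard error 0.11; edgeR adjusted p = 0.313, DESeq2 adjusted p = 0.0173). Mak16, another 60S factor, averaged 248 ± 3.74 and 207 ± 15.1 CPM in that order of groups. The helicases Ddx49 and Ddx10 of the 40S branch had log2 fold changes of 0.38 (standard error 0.14) and 0.22 (0.09).

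Among the RNA polymerase I factors, Taf1d, a subunit of the SL1 promoter complex, was at 418, 513 and 534 CPM in Cre-positive and 403, 409 and 375 CPM in Cre-negative libraries (log2 fold change 0.30, edgeR adjusted p = 0.433, DESeq2 adjusted p = 0.0441). Znrd1, a small polymerase I subunit, was at 12.8, 6.88 and 10.8 CPM in Cre-positive and 26.0, 22.2 and 17.2 CPM in Cre-negative libraries. Its ratio of mean CPM of 0.467 had an edgeR adjusted p of 0.433 and a DESeq2 adjusted p of 0.0565. The ranges of both genes did not overlap.

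MYC is the transcription factor best known for driving ribosome biogenesis genes. Myc was at 286, 254 and 232 CPM in Cre-positive and at 337, 367 and 338 CPM in Cre-negative libraries, so every Cre-positive library was lower. For Myc the log2 fold change was -0.43 ± 0.10 (SE; edgeR adjusted p = 0.225, DESeq2 adjusted p = 0.000426, alternatives from 0.000426 to 0.582), and it was negative in 16 of 16 alternatives. Mycn averaged 15.8 ± 1.93 and 23.9 ± 14.1 CPM in the same order of groups, with overlap. Of 10 tested genes of the MYC network, a list that also holds MYC antagonists such as Mxd1, Mxd4 and Mnt, 8 had a negative log2 fold change and none passed by edgeR.

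The ribosomal proteins RPL5 and RPL11 of the 5S RNP bind MDM2 when 60S assembly stalls, which is a known route to p53 activation. Rpl5 averaged 1311 ± 48.4 CPM in Cre-positive and 1339 ± 7.15 CPM in Cre-negative libraries, and Rpl11 averaged 379 ± 24.99 and 373 ± 54.9 CPM, with overlap for both. Of the 6 genes on that list, Cdkn1a, the p53 target p21, passed over all genes (edgeR adjusted p = 0.000111, up to 0.178 over the alternatives). It was at 58.5 ± 3.89 CPM in Cre-positive libraries, with 0 counts in each Cre-negative library. A count of 0 need not mean absence here, since 2095 genes had counts in 1 library only, with a median of 108 reads there. Mdm2, itself a p53 target, was at 94.5, 115 and 155 CPM in Cre-positive and 47.8, 64.3 and 64.1 CPM in Cre-negative libraries, that is 1.05 ± 0.21 (SE) on the log2 scale (edgeR adjusted p = 0.154; DESeq2 adjusted p = 6.55e-06). The 4 members called by DESeq2 had ratios of mean CPM of 1.36 or less, and Mdm2 had 2.07. Trp53 averaged 279 ± 5.89 CPM in Cre-positive and 241 ± 3.53 CPM in Cre-negative libraries, without overlap (edgeR adjusted p = 0.559).

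Of 13 tested RNA exosome genes that act in pre-rRNA trimming, none passed by edgeR. Beside Exosc3, Exosc4 had the smallest p, at 21.9 ± 17.2 CPM in Cre-positive and 13.4 ± 1.43 CPM in Cre-negative libraries, with overlap.

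The noncoding RNAs of pre-rRNA processing were poorly covered by these tables. Rmrp, the RNA of RNase MRP, which cuts within the first internal spacer, has 2 entries that carry its symbol, and reads shared between them cannot be told apart. The entry ENSMUSG00000115420 was at 131, 88.8 and 79.7 CPM in Cre-positive and 61.8, 47.1 and 69.0 CPM in Cre-negative libraries, without overlap, at 0.75 ± 0.22 (SE) on the log2 scale (edgeR adjusted p = 0.316; DESeq2 adjusted p = 0.00961). The entry ENSMUSG00000088088 was at 28.2, 49.0 and 38.0 CPM in Cre-positive and 5.53, 42.3 and 12.4 CPM in Cre-negative libraries, with overlap. Rpph1, the RNA of RNase P, averaged 369 ± 70.1 CPM in Cre-positive and 320 ± 20.7 CPM in Cre-negative libraries, with overlap. Effective lengths were 34.1 to 35.1 and 29.4 to 30.2 bases for the Rmrp entries in that order, and 54.7 to 56.0 bases for Rpph1. Few fragments could be placed within such lengths, so these counts are an uncertain measure of level.

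Several members also carry snoRNAs in their introns. In GENCODE M21, 21 snoRNA genes lie on the same strand within 7 members (Dkc1, Gnl3, Ncl, Nop56, Nop58, Tsr1 and Wdr43), and 20 of them have entries in the tables. All 20 were listed at 0 counts in all 6 libraries. Their effective length was also listed at 0, since they are shorter than the sequenced fragments, so a count of 0 says nothing of their level.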

How the data were processed

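Libraries came from a Takara stranded total RNA kit, per the labels, and the submitters' processing notes name STAR 2.5.3a, RSEM 1.3.0 and GRCm39 (mm39). The annotation release and the strand option of the counting were not given in the sources used here. The deposited tables give RSEM's expected counts, TPM, FPKM and effective transcript lengths per gene, per the file headers. Symbols were matched by Ensembl identifier for 52081 of 55359 entries. Expected counts (2.64% of values not whole) were rounded. FPKM was not used.

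Genes passing edgeR's filterByExpr (13117) were tested, Cre-positive over Cre-negative, with TMM factors and the quasi-likelihood test of edgeR 4.0.16 in R 4.3.3, and Benjamini-Hochberg adjustment over all tested genes at 0.05. Standard errors (SE) were taken from the estimate and its F statistic, and 95% intervals use the t quantile. Alternatives used DESeq2 1.42.0, limma 3.58.1 (voom, and log2(TPM + 1) values), other scalings, other count filters, effective length offsets, the replicate number as a block, and each library left out. The pipeline was tested on simulated data. A range over the alternatives is over these 16.

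The members, their role groups and the other lists (further factors, MYC network, exosome, 5S RNP, noncoding RNAs and cell type markers) were chosen with earlier results of these data known, so no list was tested as a set. Values per library, group means with their SD or log2 fold changes are given for the 2 members with the smallest p in each role group, for the 3 highest and 3 lowest in TPM, and for the 2 genes with the smallest p of each other list; others named are single examples. Replicates numbered alike were not taken as pairs, since the labels do not tie numbers to litters. The p-values rest on 3 libraries a group, and no molecular identifiers are named in the labels. GENCODE M21, on an older build, was used for gene overlaps and hosts by name only, and no coordinates are given.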

Additional observations from a re-analysis of the deposited data

How the results depend on the processing

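The count of members past the adjusted threshold was 4 by DESeq2 and 0 under each of the other 15 alternatives, limma included. The count over all genes was 16, and became 453 with DESeq2, 39 with no filter on low counts, 84 when only genes averaging 1000 counts or more were tested, 6 with effective length offsets and 6 with limma on log2(TPM + 1). Leaving out single libraries gave 7 to 16 genes, with 7 without Cre-positive replicate 2 and 9 without Cre-positive replicate 1. With the replicate block it was 56, with 0 members among them, and Mdm2 passed (adjusted p = 0.0272). Deviations of libraries numbered alike correlated at 0.0260, 0.0534 and 0.0726 across genes, each library best with its own number. Over the 50 members these correlations were -0.374, -0.134 and -0.230. No threshold was set for them, so they cannot decide whether the numbers mark pairs. Positive members numbered 26 to 34 under the alternatives that kept all libraries and 21 to 35 with single libraries left out, with 21 without Cre-negative replicate 3. The median of the members lay between -0.02 and 0.07, and the count with an interval within 1 log2 unit between 44 and 50. Exosc3 passed with DESeq2 (log2 fold change -0.87). The log2 fold change kept its sign under all 16 alternatives for 22 of 50 members. Length offsets and log2(TPM + 1) shifted the most members beyond their SD between libraries, 12 and 14. The cause of these changes was not tested. The widest intervals were those of Nob1, Imp4, Imp3, Nip7 and Tbl3, for which smaller changes were not detectable in these libraries.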
